A study of Mus musculus with 6 samples.

Results

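The chemokine and chemokine receptor genes were followed in HSPCs of the mouse, its hematopoietic stem and progenitor cells, that carried the leukemic fusion oncogene MLL-AF9 and grew under pro-lymphoid or pro-myeloid conditions. The genes were taken by symbol from the table of counted genes, as every row whose symbol began with Ccl, Cxcl, Ccr or Cxcr and a digit, with Cx3c, Xcl1, Xcr1 or Ackr, or with Ccrl and a digit. This gave 61 of 23337 genes, of which 39 encode chemokines, 19 conventional receptors and 3 atypical or receptor-like proteins (Ccrl1, Ccrl2 and Cxcr7). The pro-lymphoid group held 3 libraries (replicates 1, 5 and 6) and the pro-myeloid group 3 (replicates 2, 3 and 4), and values by library are given in these orders. All 6 libraries came from MLL-AF9 transformed cells, so no untransformed cells serve as a comparison. The sources used here do not say how the fusion was introduced, which cytokines or supporting cells each culture held, or how long it lasted. Nor do the labels state whether the libraries of a group stem from separate cultures or animals. The p-values therefore rest on the spread among these libraries, and that spread may be technical.

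Chemokines are small proteins, most of them secreted, that guide the movement of leukocytes and fall into CC, CXC, CX3C and XC classes by the spacing of their first cysteines. Their receptors couple to inhibitory G proteins, and the signal runs through phosphoinositide 3-kinase, phospholipase C and Rac to the actin skeleton and the integrins, until receptor kinases and arrestins shut it off. In bone marrow, Cxcr4 on stem and progenitor cells is held by stromal Cxcl12, Ccr2 lets monocytes leave for the blood, and Cxcr2 does so for neutrophils. Ccr7 and Ccr9 guide lymphoid progenitors to the thymus, and Ccr7 also brings mature dendritic cells and naive T cells to lymph nodes. Cx3cr1, the fractalkine receptor, marks monocytes, macrophages and their progenitors.

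The libraries held 34972488 to 46724382 counts, and 3 counts in 1 library corresponded to 0.0650 to 0.0888 CPM (counts scaled to library size). The progenitor genes Kit and Cd34 and the MLL target Hoxa9 were present in all 6 libraries. Kit stood at 80.4, 68.4 and 102 CPM in pro-lymphoid libraries and at 18.8, 13.3 and 42.6 CPM in pro-myeloid libraries, and the pan-leukocyte gene Ptprc at 277 to 323 CPM in pro-lymphoid and 354 to 433 CPM in pro-myeloid libraries. Pro-myeloid replicate 2 stood apart in the receptor genes. Of the 22 member genes with enough counts to be tested, Cxcr2, Ccl6, Ccr1 and Ccr2 were among those that lay more than 4-fold lower there than in both other pro-myeloid libraries, as did 1.64% of all tested genes. The fold changes of these genes are given with and without it. Because these same genes singled it out, a call made without it is descriptive only. By the same measure, pro-lymphoid replicate 1 lay below both other pro-lymphoid libraries in 1.76% of all tested genes.

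Few of these genes were abundant in either culture. In all 6 libraries 15 of the 61 genes had 0 counts, 11 had fewer than 10 counts in total, and 22 (11 chemokine and 11 receptor genes) passed the filter on low counts and were tested. Of the 22 tested, 4 rose and 2 fell in pro-lymphoid against pro-myeloid culture (edgeR quasi-likelihood test, Benjamini-Hochberg adjusted p under 0.05). The genes higher there were Ccr7, Ccl5, Cx3cl1 and Cxcl16, and the genes lower there were Ccl27a and Cxcr2. Among all 12477 genes tested, 38.6% were called, 17.4% being higher and 21.3% lower, so the share of 27.3% among these genes was not above the background. The median log2 fold change (pro-lymphoid minus pro-myeloid) was 0.40 for the tested members, 1.35 for the chemokines and 0.14 for the receptors, against -2e-04 for all tested genes. A gene that passed the filter only through the culture where it was high had to differ, so these counts and medians are descriptive. Without pro-myeloid replicate 2 the calls among the members came to 10 higher and 4 lower. Ccr9, which did not pass the filter with all libraries, was among them. Calls among all tested genes also rose, from 2169 to 2478 higher and from 2652 to 2907 lower. In bulk RNA, a change in the number of cells of a type and a change in RNA per cell cannot be told apart.

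**Figure D1:**
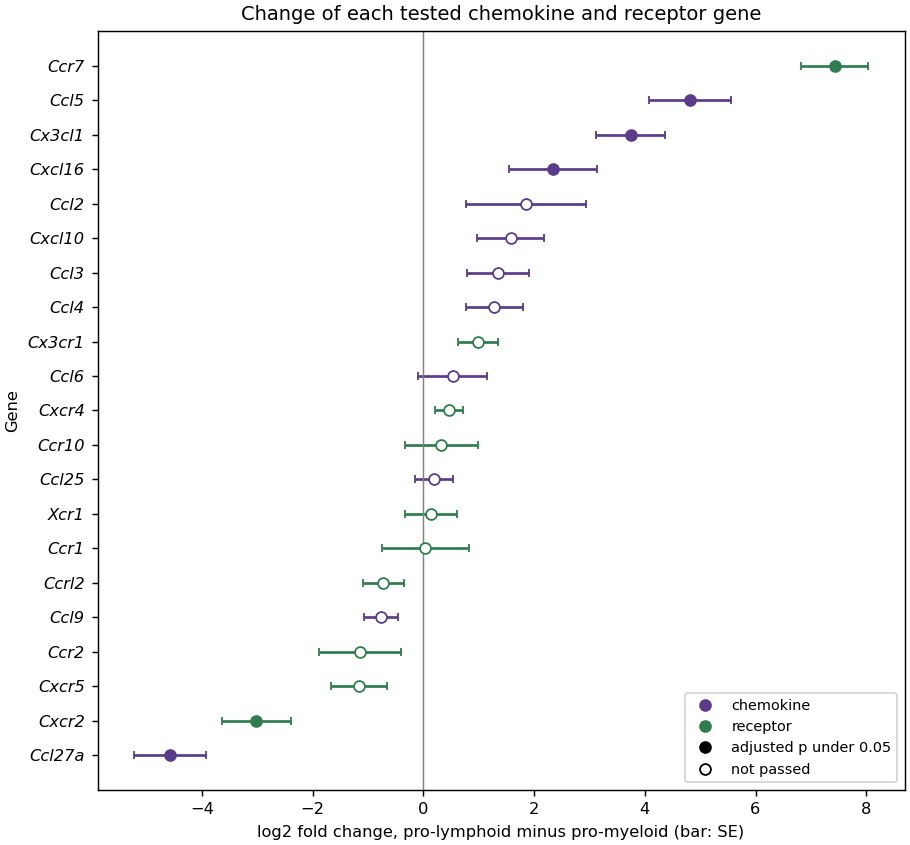
Log2 fold change (horizontal axis, pro-lymphoid minus pro-myeloid) of 21 of the 22 tested chemokine (purple) and receptor (green) genes, with bars for the SE; filled points passed an edgeR adjusted p of 0.05. Ccr7 lies far to the right at 7.43, and Ccl27a and Cxcr2 are the filled points left of 0.

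Summed over all chemokine genes, the pro-lymphoid libraries held 518, 281 and 383 CPM and the pro-myeloid libraries 355, 567 and 511 CPM. Ccl9 and Ccl3 made up 86.7 ± 5.44% of this sum in pro-lymphoid culture and 94.9 ± 1.42% in pro-myeloid culture (SD, n = 3). The receptor genes summed to 972, 763 and 736 CPM in pro-lymphoid libraries and to 376, 1387 and 890 CPM in pro-myeloid libraries. Ccr2, Cxcr4 and Cx3cr1 supplied 86.1 ± 2.60% of the receptor sum in pro-lymphoid culture and 91.9 ± 0.731% in pro-myeloid culture. Neither sum separated the groups, and in both cultures a handful of genes carried nearly all the counts.

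**Figure D2:**
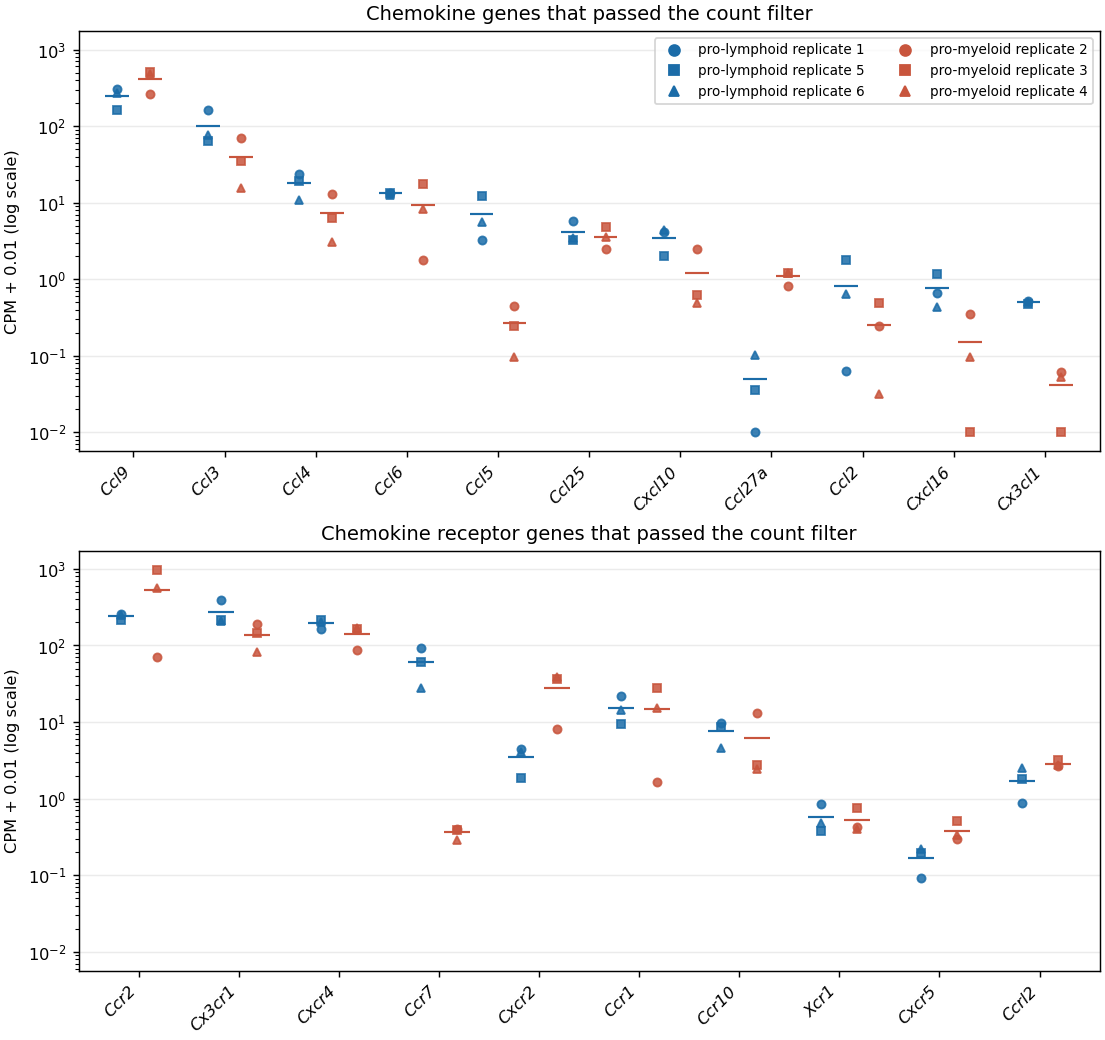
CPM plus 0.01 on a log axis for 21 tested genes, chemokines in the upper and receptors in the lower panel; each point is 1 library, blue for pro-lymphoid and red for pro-myeloid, and the line is the group mean. Blue and red points are widely separated for Ccr7, Ccl5, Ccl27a and Cx3cl1, whereas the abundant Ccl9, Ccl3, Ccr2 and Cxcr4 overlap between the groups.

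Ccl9 was the most abundant chemokine gene by CPM. It encodes a CC chemokine of mouse myeloid cells that binds Ccr1, and lies on the minus strand at chr11:83572917-83578636 (mm10). Ccl9 had 303, 162 and 267 CPM in pro-lymphoid libraries, against 264, 501 and 478 CPM in pro-myeloid libraries. The groups overlapped through pro-myeloid replicate 2, which lay below pro-lymphoid replicates 1 and 6. Its log2 fold change of -0.76 ± 0.31 (SE) did not pass (edgeR adjusted p = 0.0859). Without pro-myeloid replicate 2 it was -1.01 and passed (adjusted p = 0.0171), and DESeq2 also called it with all libraries (adjusted p = 0.0359).

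Ccl3 and Ccl4, which encode macrophage inflammatory proteins, Ccl3 being a ligand of Ccr1, lie next to each other at higher coordinates than Ccl9. Ccl3 (chr11:83647843-83649378, minus strand) had 163, 64.2 and 76.2 CPM in pro-lymphoid libraries and 69.3, 34.5 and 15.5 CPM in pro-myeloid libraries. Ccl4 (chr11:83662584-83664683, plus strand) had 23.9, 19.1 and 10.9 CPM in pro-lymphoid libraries and 12.9, 6.36 and 3.06 CPM in pro-myeloid libraries. For both genes the highest pro-myeloid library, replicate 2, lay just above the lowest pro-lymphoid library. The log2 fold changes of 1.35 ± 0.56 for Ccl3 and 1.28 ± 0.51 for Ccl4 did not pass (edgeR adjusted p = 0.0954 and 0.0863). Without pro-myeloid replicate 2 they were 2.02 and 1.95 and passed (adjusted p = 0.018 and 0.0123), and DESeq2 called both with all libraries (adjusted p = 0.0251 and 0.0355). Without pro-lymphoid replicate 1 they were 0.82 and 1.02, and without pro-myeloid replicate 4 they were 0.96 and 0.89, with no call in edgeR. Per exon length, Ccl3 stood at 128 RPKM (CPM per kilobase of exon) and Ccl9 at 81.2 RPKM in pro-lymphoid culture, and at 50.3 and 138 RPKM in pro-myeloid culture.

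The promoters of Ccl9 and Ccl3 are shown because these neighbours carry most chemokine counts and their fold changes had opposite signs. They are RefSeq sequences of GRCm38.p6, 250 bases before to 50 after the annotated start, read 5′ to 3′ on the minus strand, from chr11:83578587-83578886 for Ccl9 and chr11:83649329-83649628 for Ccl3. Capitals mark matches, on either strand, to motifs of factors known in blood cells: GGAAGT for PU.1, TGANTCA for AP-1, CAGNTG for the E-box and TGTGGT for RUNX.
Ccl9: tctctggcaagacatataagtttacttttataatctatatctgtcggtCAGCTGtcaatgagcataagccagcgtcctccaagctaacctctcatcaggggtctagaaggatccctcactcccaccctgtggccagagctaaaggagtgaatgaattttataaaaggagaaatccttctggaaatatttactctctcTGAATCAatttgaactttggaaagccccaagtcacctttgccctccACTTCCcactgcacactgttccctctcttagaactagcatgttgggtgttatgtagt
Ccl3: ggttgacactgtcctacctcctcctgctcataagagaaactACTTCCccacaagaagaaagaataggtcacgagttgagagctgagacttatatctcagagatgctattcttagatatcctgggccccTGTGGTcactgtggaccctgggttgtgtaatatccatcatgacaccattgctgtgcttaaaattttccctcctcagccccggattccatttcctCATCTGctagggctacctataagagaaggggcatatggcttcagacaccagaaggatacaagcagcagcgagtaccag
The Ccl9 window held an E-box match at -202, an AP-1 match at -53 and a PU.1 match at -7, counted from the start to the first base of the match. The Ccl3 window held PU.1 letters at -209, RUNX letters at -122 and an E-box at -28. Among 32851 RefSeq promoters of this length, 23.8% held the PU.1 letters, 7.81% AP-1, 51.4% the E-box and 16.8% RUNX. None of the matches overlapped another, and a match is a description of the letters, not a bound site.

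Ccl6, whose product is a further mouse CC chemokine of myeloid cells, lies between Ccl9 and Ccl3. It had 13.3, 13.5 and 12.7 CPM in pro-lymphoid libraries, against 1.77, 17.6 and 8.28 CPM in pro-myeloid libraries. The pro-lymphoid libraries were nearly equal and fell within the pro-myeloid range. Its log2 fold change was 0.53 ± 0.63 (edgeR adjusted p = 0.535), and it was 0.04 without pro-myeloid replicate 2 and 1.36 without pro-myeloid replicate 3, with no call either way.

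Ccl5 (RANTES), a chemokine of T cells, natural killer cells and activated myeloid cells that binds Ccr1, lies on the other side of Ccl9 at chr11:83525779-83530518, minus strand. It had 3.20, 12.2 and 5.61 CPM in pro-lymphoid libraries, against 0.443, 0.237 and 0.0867 CPM in pro-myeloid libraries. Every pro-lymphoid library lay above every pro-myeloid library, and 827 of its counts came from pro-lymphoid and 29 from pro-myeloid culture. Ccl5 was 28.1-fold higher, a log2 fold change of 4.81 ± 0.74 (edgeR adjusted p = 0.00249). The log2 fold change was 5.51 without pro-myeloid replicate 2 and 4.15 without pro-lymphoid replicate 5, which held the most Ccl5. Markers of T and NK cells summed to 7.485 to 15.71 CPM in pro-lymphoid libraries and 16.01 to 44.25 CPM in pro-myeloid libraries. Of the 4 tested markers on that list 2 were higher and 1 lower, beside 17.4% and 21.3% of all tested genes. Cd3e, Ncr1, Gzma and Gzmb had 0 counts in all 6 libraries. The part of that list in the Ccl5 result was not tested.

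**Figure D3:**
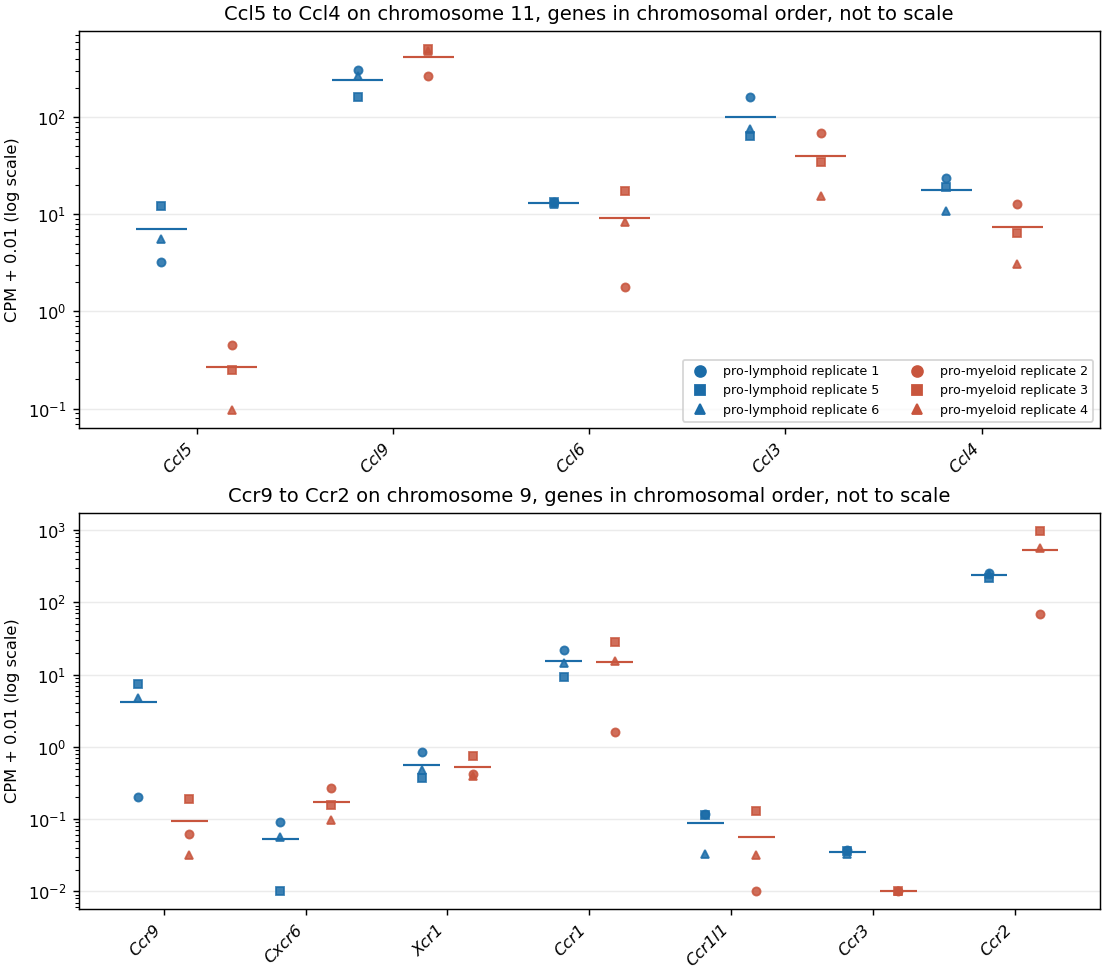
CPM plus 0.01 on a log axis for neighbouring chemokine genes of chromosome 11 (upper panel) and receptor genes of chromosome 9 (lower panel), in chromosomal order and not to scale; points are libraries and lines group means. Within 1 stretch of chromosome 11, Ccl5 separates the cultures while Ccl9, Ccl6, Ccl3 and Ccl4 overlap, and Ccr1 and Ccr2 have their lowest point in pro-myeloid replicate 2.

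Cx3cl1 (fractalkine) is a membrane-bound ligand, released by shedding, and the ligand of Cx3cr1. It had 0.515, 0.471 and 0.489 CPM in pro-lymphoid libraries, against 0.0521, 0 and 0.0433 CPM in pro-myeloid libraries. These levels are low, at 58 pro-lymphoid and 4 pro-myeloid counts, but the pro-lymphoid libraries were nearly equal and the groups did not overlap. Cx3cl1 was 13.4-fold higher, with a log2 fold change of 3.74 ± 0.62 (edgeR adjusted p = 0.00127).

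Cxcl16 is also membrane-bound and is the ligand of Cxcr6. It had 0.651, 1.18 and 0.419 CPM in pro-lymphoid libraries, against 0.338, 0 and 0.0867 CPM in pro-myeloid libraries, from 87 pro-lymphoid and 17 pro-myeloid counts. The groups did not overlap, but pro-lymphoid replicate 6 and pro-myeloid replicate 2 were close. Its log2 fold change of 2.34 ± 0.79 passed narrowly (edgeR adjusted p = 0.0494), and the call was lost under 9 of 13 alternative settings, among them the removal of any library except pro-myeloid replicate 2, without which the log2 fold change was 3.81. Its exons share 363 bases (14.83%) with Zmynd15 on the opposite strand, whose reads cannot be told apart from those of Cxcl16 in a count without strand. Zmynd15 had 0.244, 0.157 and 0.0233 CPM in pro-lymphoid libraries and 0 counts in pro-myeloid libraries.

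Ccl27a, which encodes a skin chemokine that binds Ccr10, was the chemokine gene that fell. It had 0, 0.0261 and 0.0931 CPM in pro-lymphoid libraries, against 0.807, 1.21 and 1.21 CPM in pro-myeloid libraries. The groups were far apart, at 5 pro-lymphoid and 128 pro-myeloid counts. Ccl27a was 23.8-fold lower, a log2 fold change of -4.57 ± 0.65 (edgeR adjusted p = 0.000552), and -6.03 without pro-lymphoid replicate 6, which held 4 of the 5 counts. The near-identical copy Ccl27b was listed at 0 counts in all libraries, and reads of the copies may be assigned to either, so the value of Ccl27a is uncertain as to the copy. Its exons overlap those of Il11ra1 by 12 bases on the opposite strand, and Il11ra1 had 2.39, 2.01 and 1.74 CPM in pro-lymphoid libraries and 2.29, 5.15 and 3.42 CPM in pro-myeloid libraries.

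Cxcl10, an interferon-induced ligand of Cxcr3, had 4.09, 2.01 and 4.37 CPM in pro-lymphoid libraries, against 2.45, 0.622 and 0.477 CPM in pro-myeloid libraries. Pro-myeloid replicate 2 lay above pro-lymphoid replicate 5, so the groups overlapped. The log2 fold change of 1.58 ± 0.60 did not pass with all libraries (edgeR adjusted p = 0.0752). It passed without pro-myeloid replicate 2, at 2.69 (adjusted p = 0.00585), and in limma-voom with all libraries (adjusted p = 0.0475). Ccl25, the thymic ligand of Ccr9, had 3.22 to 5.67 CPM in pro-lymphoid and 2.47 to 4.74 CPM in pro-myeloid libraries (log2 fold change 0.19 ± 0.34, edgeR adjusted p = 0.679). Ccl2, the main ligand of Ccr2, had 0.0542, 1.75 and 0.628 CPM in pro-lymphoid and 0.234, 0.474 and 0.0217 CPM in pro-myeloid libraries (log2 fold change 1.85 ± 1.08, edgeR adjusted p = 0.213). The value of Ccl2 was 0.68 without pro-lymphoid replicate 5, 1.21 without pro-myeloid replicate 4 and 2.74 without pro-myeloid replicate 3, with no call in any of these.

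The promoter of Cxcl10 is shown because it holds the letters of inflammatory response elements, beside those of Cx3cl1 and Cxcr2, the called members with a single RefSeq promoter window. The windows are chr5:92348840-92349139 on the minus strand for Cxcl10, chr8:94771930-94772229 on the plus strand for Cx3cl1 and chr1:74153744-74154043 on the plus strand for Cxcr2. Capitals mark the motifs named above and also, for the interferon-stimulated response element, GAAA and GAAA with 2 bases between them, and, for NF-kB, the kB letters GGGA and TCC with 3 bases between them.
Cxcl10: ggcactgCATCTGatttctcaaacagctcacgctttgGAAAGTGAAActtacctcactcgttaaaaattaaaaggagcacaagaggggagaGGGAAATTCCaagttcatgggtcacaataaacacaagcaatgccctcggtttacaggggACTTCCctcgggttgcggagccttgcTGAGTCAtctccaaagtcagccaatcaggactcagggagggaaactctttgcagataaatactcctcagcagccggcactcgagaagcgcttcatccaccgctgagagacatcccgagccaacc
Cx3cl1: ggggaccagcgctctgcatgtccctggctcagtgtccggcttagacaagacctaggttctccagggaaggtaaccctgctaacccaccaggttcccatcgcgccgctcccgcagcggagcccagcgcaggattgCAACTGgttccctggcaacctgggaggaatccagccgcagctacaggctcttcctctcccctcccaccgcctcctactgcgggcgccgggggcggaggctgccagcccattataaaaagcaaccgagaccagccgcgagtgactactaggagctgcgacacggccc
Cxcr2: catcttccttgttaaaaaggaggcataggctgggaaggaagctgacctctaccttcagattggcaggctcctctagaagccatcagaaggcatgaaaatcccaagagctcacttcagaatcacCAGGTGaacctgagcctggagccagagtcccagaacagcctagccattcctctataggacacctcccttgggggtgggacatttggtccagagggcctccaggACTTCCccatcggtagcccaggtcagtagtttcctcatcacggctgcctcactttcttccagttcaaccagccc
The Cxcl10 window held the interferon element's letters at -213, kB letters at -159, PU.1 letters at -100, an AP-1 match at -74 and an E-box at -243. The interferon element was found in 3.44% and the kB letters in 4.59% of the 32851 promoters. The Cxcl10 window was chosen for these letters, so these shares do not measure enrichment. The Cx3cl1 window held an E-box at -116, and the Cxcr2 window an E-box at -127 and PU.1 letters at -24. The letters of C/EBP, TTGC and AA with 2 bases between them, were also searched; they occur in 10.8% of the 32851 promoters and not in the 5 windows shown.

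The remaining chemokine genes had too few counts to be tested. Genes with 0 counts in all 6 libraries were Ccl8, Ccl11, Ccl19, Ccl20, Ccl21a, Ccl21b, Ccl21c, Ccl26, Ccl27b, Cxcl1, Cxcl3, Cxcl5, Cxcl11 and Cxcl13, where 3 counts in a library correspond to 0.0650 to 0.0888 CPM. Ccl21a, Ccl21b, Ccl21c and Ccl27b share exon bases on the same strand with other counted genes (Gm1987, Gm10591 and Gm13306 among them), and reads there may not be assigned, so 0 counts set no limit on the expression of these 4 genes. Ccl19 is also annotated at several placements, so its 0 counts are uncertain too. Ccl1 had 24 counts, Xcl1 12 and Ccl7 18, all from pro-lymphoid libraries. Against a floor of 3 counts over the pro-myeloid group these are 8-fold, 4-fold and 6-fold higher, with the error of the counts themselves left out. Tested without the filter, none of them passed (edgeR adjusted p = 0.0679, 0.119 and 0.224). The 18 counts of Ccl7, another Ccr2 ligand, all came from pro-lymphoid replicate 5. Ccl24, an eosinophil attractant, had 18 counts from pro-myeloid libraries and 0 from pro-lymphoid libraries. It was 5.9-fold lower in the pro-lymphoid libraries against the same floor, and did not pass without the filter (edgeR adjusted p = 0.0927). Ccl28 had 37 pro-lymphoid and 14 pro-myeloid counts, and Cxcl2 had 12 pro-lymphoid and 5 pro-myeloid counts. Cxcl12, the stromal ligand of Cxcr4, had 0 pro-lymphoid and 5 pro-myeloid counts. Markers of stromal and endothelial cells summed to 264.5 to 321.1 CPM in pro-lymphoid and 358.5 to 382.5 CPM in pro-myeloid libraries, with 3 higher and 4 lower of 9 tested, and Col1a2, Col3a1, Dcn, Lum, Kdr and Cspg4 at 0 counts throughout. Most of that sum was Pecam1, which leukocytes also express, at 228 to 303 CPM in pro-lymphoid and 318 to 342 CPM in pro-myeloid libraries. The others, Cxcl14, Cxcl15, Cxcl17, Ccl17, Ccl22, Cxcl9 and Ccl12, had 2 to 7 counts each in all 6 libraries together.

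Ccr7 had the largest log2 fold change of the 11 tested receptor genes and is annotated on the minus strand at chr11:99144199-99155077. It encodes the receptor of Ccl19 and Ccl21, and the genes of these ligands were listed at 0 counts. For the Ccl21 genes, which share exon bases with other counted genes, 0 counts set no limit, and Ccl19 is annotated at several placements. Ccr7 had 93.6, 60.4 and 27.5 CPM in pro-lymphoid libraries, against 0.391, 0.385 and 0.282 CPM in pro-myeloid libraries. The pro-myeloid libraries were nearly alike and far below every pro-lymphoid library, among which replicate 1 was highest and replicate 6 lowest. The means were 60.5 ± 33.1 CPM in pro-lymphoid and 0.352 ± 0.0612 CPM in pro-myeloid culture (SD, n = 3), from 6942 pro-lymphoid and 41 pro-myeloid counts. Ccr7 was 172-fold higher, a log2 fold change of 7.43 ± 0.60 (edgeR adjusted p = 0.000166). Dendritic cell markers summed to 1501, 2470 and 1907 CPM in pro-lymphoid libraries and 842.7 to 1384 CPM in pro-myeloid libraries, so that the pro-lymphoid sum was lowest in replicate 1, where Ccr7 was highest. Flt3, on that list, had 389, 511 and 401 CPM in pro-lymphoid and 0.729, 30.7 and 10.2 CPM in pro-myeloid libraries. Without Flt3 the sums would overlap, pro-lymphoid replicate 1 lying below pro-myeloid replicate 3. Of that list 8 of 10 tested were higher and 1 lower, beside 17.4% and 21.3% of all tested genes, and none of the 14 was at 0 throughout. B lineage markers summed to 44.11 to 64.57 CPM in pro-lymphoid and 29.71 to 54.88 CPM in pro-myeloid libraries, with 3 of 7 tested higher and 2 lower. The part of either list in the Ccr7 result was not tested.

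Cxcr2 was the receptor gene that fell. It encodes the receptor of the neutrophil attractants Cxcl1, Cxcl2, Cxcl3 and Cxcl5 and lies on the plus strand at chr1:74153994-74161246. It had 4.45, 1.86 and 4.05 CPM in pro-lymphoid libraries, against 8.12, 37.0 and 38.7 CPM in pro-myeloid libraries. Pro-myeloid replicate 2 was close to the pro-lymphoid libraries, and the other pro-myeloid libraries lay far above them. Cxcr2 was 8.08-fold lower, a log2 fold change of -3.02 ± 0.62 (edgeR adjusted p = 0.00832), and -3.45 without that replicate (adjusted p = 0.000312). Neutrophil markers summed to 193.9 to 390.8 CPM in pro-lymphoid libraries and 4749 to 9374 CPM in pro-myeloid libraries, and 10 of 11 tested were lower, 0 were higher and none was at 0 throughout. Most of the pro-myeloid sum came from the granule genes Ctsg, Mpo, Elane and Prtn3, which averaged 2076, 1654, 1509 and 1392 CPM there. The part of this list in the Cxcr2 result was not tested.

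Ccr2, the receptor of Ccl2 and Ccl7, was the most abundant receptor gene by CPM in pro-myeloid replicates 3 and 4. It had 257, 216 and 250 CPM in pro-lymphoid libraries, against 69.9, 975 and 561 CPM in pro-myeloid libraries. The pro-lymphoid libraries were close together and lay between pro-myeloid replicate 2 and the other two. Its log2 fold change of -1.15 ± 0.74 did not pass (edgeR adjusted p = 0.255), whereas without pro-myeloid replicate 2 it was -1.67 and passed (adjusted p = 0.00165), and without pro-myeloid replicate 3 it was -0.39 (adjusted p = 0.71). Markers of macrophages and monocytes summed to 455.6 to 1518 CPM in pro-lymphoid libraries and 1573 to 2097 CPM in pro-myeloid libraries. Of 8 tested, 2 were higher and 2 lower, beside 17.4% and 21.3% of all tested genes. None of the matched markers was at 0 throughout. Most of the pro-myeloid sum was Ly6c2 and Csf1r, with means of 1178 and 455 CPM there. Marco and Cd163 on the same list were higher in pro-lymphoid culture, with means of 196 and 8.12 CPM against 0.494 and 0.00722 CPM. The part of that list in the Ccr2 values was not tested.

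Cx3cr1 had 396, 215 and 206 CPM in pro-lymphoid libraries, against 189, 143 and 81.2 CPM in pro-myeloid libraries. The groups did not overlap, as in 9 of the 22 tested member genes and in 53.6% of all tested genes. Its log2 fold change of 0.98 ± 0.36 did not pass (edgeR adjusted p = 0.0652), but it passed without pro-myeloid replicate 2 at 1.28 (adjusted p = 0.0281), in DESeq2 (adjusted p = 0.0176) and with upper-quartile scaling (adjusted p = 0.0471). Cxcr4 had 166, 217 and 200 CPM in pro-lymphoid libraries and 87.4, 165 and 169 CPM in pro-myeloid libraries. These groups overlapped by a narrow margin, and the log2 fold change of 0.47 ± 0.25 did not pass (edgeR adjusted p = 0.179). Per exon length, Cxcr4 led the receptors in pro-lymphoid culture with 107 RPKM, ahead of Cx3cr1 at 73.1, Ccr2 at 67.1 and Ccr7 at 30.6, and the libraries of Cxcr4 and Cx3cr1, and of Cx3cr1 and Ccr2, overlapped. Among these same genes the order in pro-myeloid culture was Ccr2 at 149 RPKM, Cxcr4 at 77.4, Cx3cr1 at 37.0 and Ccr7 at 0.178. Other receptor genes lay between Cx3cr1 and Ccr7 there, among them Cxcr2 at 9.18 RPKM. The spread of Ccr2 in pro-myeloid libraries (535 ± 453 CPM, SD, n = 3) covers the gap to its neighbours in that order.

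Ccr1, an inflammatory receptor with Ccl3 and Ccl5 among its ligands, did not pass. It had 22.0, 9.36 and 14.5 CPM in pro-lymphoid libraries and 1.61, 28.0 and 15.3 CPM in pro-myeloid libraries (log2 fold change 0.04 ± 0.78, edgeR adjusted p = 0.975). The value was -0.50 without pro-myeloid replicate 2, -0.32 without pro-lymphoid replicate 1 and 0.83 without pro-myeloid replicate 3, with no call in any of these. The pro-lymphoid libraries fell inside the range of the pro-myeloid libraries, whose lowest was replicate 2. Ccr10, the receptor of Ccl27 and Ccl28, showed the opposite within-group pattern, with 9.65, 8.71 and 4.56 CPM in pro-lymphoid libraries and 13.1, 2.72 and 2.45 CPM in pro-myeloid libraries. Replicate 2 was the highest pro-myeloid library here, more than 4-fold above both others, as were 1% of all tested genes. The log2 fold change of Ccr10 was 0.32 ± 0.66 (edgeR adjusted p = 0.723), and 1.56 without pro-myeloid replicate 2, where it passed (adjusted p = 0.0167). Without pro-myeloid replicate 3 or 4 its sign turned, at -0.02 and -0.08, and it was not called.

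**Figure D4:**
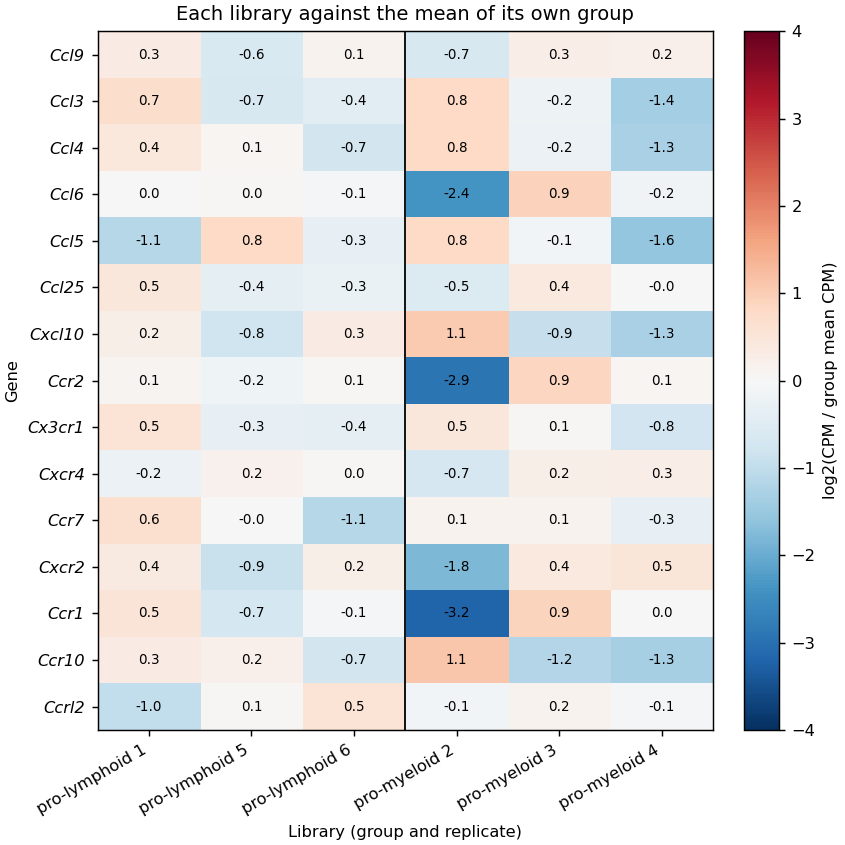
Log2 of each library's CPM over the mean of its own group (colour and printed value) for 15 of the 22 tested genes, with counts in every library and a mean of at least 1 CPM; columns are the pro-lymphoid libraries, then the pro-myeloid libraries. The column of pro-myeloid replicate 2 holds the deepest blue for Ccr2, Ccr1, Ccl6 and Cxcr2 and is red for Ccr10.

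Ccr9 and Ccr6 had counts almost entirely in pro-lymphoid libraries but did not pass the filter, since pro-lymphoid replicate 1 was low. Ccr9 (chr9:123767211-123783457, plus strand), the thymus and gut homing receptor also found on plasmacytoid dendritic cells, had 0.190, 7.40 and 4.77 CPM in pro-lymphoid libraries and 0.0521, 0.178 and 0.0217 CPM in pro-myeloid libraries, from 495 pro-lymphoid and 9 pro-myeloid counts. Ccr6, the Ccl20 receptor of B cells and dendritic cells, had 0.108, 1.31 and 0.582 CPM in pro-lymphoid libraries and 0 counts in pro-myeloid libraries. With 79 counts against a floor of 3 over the group, Ccr6 was 26.3-fold higher, the error of the 79 counts left out. Tested without the filter over 16708 genes, both passed (edgeR adjusted p = 0.0108 for Ccr9 and 0.0419 for Ccr6), and none of the other 22 members with counts but too few for the filter did. Siglech, a plasmacytoid dendritic cell gene, had 6.78, 93.1 and 51.1 CPM in the pro-lymphoid libraries, and H2-Aa, an MHC class II gene, had 4.72, 101 and 29.2 CPM. Both were thus lowest in replicate 1 and highest in replicate 5, as Ccr9 and Ccr6 were, and their part in the result was not tested.

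The other receptors were scarce. Xcr1, the receptor of Xcl1 on cross-presenting dendritic cells, had 0.366 to 0.841 CPM in pro-lymphoid and 0.390 to 0.740 CPM in pro-myeloid libraries (log2 fold change 0.14 ± 0.47, edgeR adjusted p = 0.84). Cxcr5, the B cell follicle receptor of Cxcl13, had 0.0814 to 0.209 CPM in pro-lymphoid and 0.286 to 0.503 CPM in pro-myeloid libraries (log2 fold change -1.17 ± 0.50, edgeR adjusted p = 0.105). Ccrl2, a receptor-like protein that binds chemerin, had 0.868 to 2.47 CPM in pro-lymphoid and 2.66 to 3.17 CPM in pro-myeloid libraries (log2 fold change -0.72 ± 0.37, edgeR adjusted p = 0.161). Cxcr5 and Ccrl2 did not overlap between the groups but missed the threshold. Cxcr3, the Cxcl10 receptor, had 46 pro-lymphoid and 7 pro-myeloid counts, and Cxcr6 had 5 pro-lymphoid and 19 pro-myeloid counts. Pro-lymphoid and pro-myeloid counts were 6 and 9 for Ccr4, 9 and 5 for Ccr1l1, and 15 and 17 for the scavenging receptor gene Ccrl1. Ccr3 had 3 counts and Ccr8 had 1, all from pro-lymphoid libraries, Cxcr1 had 1 from a pro-myeloid library, and Cxcr7, which also binds Cxcl12, had 0.

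Some receptors and ligands were counted side by side. Cx3cr1 and Cx3cl1 were both counted in pro-lymphoid culture, with means of 273 ± 107 and 0.491 ± 0.0225 CPM, and in pro-myeloid culture with 138 ± 54.1 and 0.0318 ± 0.0279 CPM. Ccl3 and Ccl5 were present with Ccr1 in both cultures, Ccl5 at 7.01 ± 4.68 CPM in pro-lymphoid and 0.255 ± 0.179 CPM in pro-myeloid culture. Of the Cxcr2 ligands named above, Cxcl1, Cxcl3 and Cxcl5 were listed at 0 counts and Cxcl2 at 12 pro-lymphoid and 5 pro-myeloid counts.

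Of the 99 matched genes on 7 lists of chemokine signalling and neighbouring chemoattractant systems, 84 were tested, of which 14 rose and 22 fell, with a median log2 fold change of -0.05. The share called was close to the background of 17.4% higher and 21.3% lower among all tested genes, against which the counts of each list below are to be read. Without pro-myeloid replicate 4, 9 were higher, and without pro-lymphoid replicate 6, 13 were lower. Among 13 tested G protein subunits 1 rose and 5 fell. Gnai3, an inhibitory alpha subunit, averaged 124 ± 10.8 CPM in pro-lymphoid and 341 ± 69.6 CPM in pro-myeloid culture (log2 fold change -1.47 ± 0.17, edgeR adjusted p = 0.000749). The more abundant inhibitory alpha subunit gene Gnai2 averaged 857 ± 23.5 and 884 ± 71.7 CPM in these cultures. It did not pass (-0.04 ± 0.13, edgeR adjusted p = 0.807). Gnb5, a beta subunit that pairs with RGS proteins, averaged 4.16 ± 0.342 CPM in pro-lymphoid and 33.8 ± 6.36 CPM in pro-myeloid culture (-3.02 ± 0.20, adjusted p = 6.42e-05). The gamma subunits Gng7 and Gng5 fell by log2 values of 1.38 and 0.56 (edgeR adjusted p = 0.00291 and 0.0092).

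Of 14 tested receptor kinases, arrestins and RGS proteins, which end the signal, 4 rose and 1 fell. Adrbk2, which encodes the receptor kinase GRK3 known to act on Cxcr4, had 8.33, 28.9 and 18.9 CPM in pro-lymphoid libraries, against 0.495, 0.947 and 1.21 CPM in pro-myeloid libraries (log2 fold change 4.38 ± 0.56, edgeR adjusted p = 0.00113). Rgs1, a GTPase activator that limits chemokine signals in lymphocytes, had 3.06, 3.82 and 7.61 CPM in pro-lymphoid libraries and 0 counts in pro-myeloid libraries. It was 195.7-fold higher against the floor of 3 counts (edgeR adjusted p = 0.0026). Rgs10 rose by a log2 value of 0.89 and Grk5 fell by 1.80 (edgeR adjusted p = 0.0196 and 0.0113). For Adrbk2 and Rgs1 no library of 1 culture overlapped with the other.

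In the effector lists the calls went both ways. Of 19 tested genes of the phosphoinositide 3-kinase gamma, phospholipase C and Rac module, 3 rose and 3 fell, with a median of -0.01. Pak1, a kinase below Rac, and Was, an actin regulator, rose by log2 values of 1.05 and 0.41 (edgeR adjusted p = 0.0117 and 0.0147), and Plcb2 and Pik3r6 fell by 0.90 and 1.05 (adjusted p = 0.0332 and 0.0443). Of 13 tested integrin activation genes, 3 rose and 5 fell. The alpha 4 integrin gene Itga4 averaged 313 ± 40.1 CPM in pro-lymphoid and 123 ± 28.4 CPM in pro-myeloid culture (log2 fold change 1.35 ± 0.19, edgeR adjusted p = 0.00156). Itgam, the alpha chain of the myeloid integrin Mac-1, averaged 165 ± 30.9 CPM in pro-lymphoid and 515 ± 140 CPM in pro-myeloid culture (-1.64 ± 0.23, adjusted p = 0.00158).

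**Figure D5:**
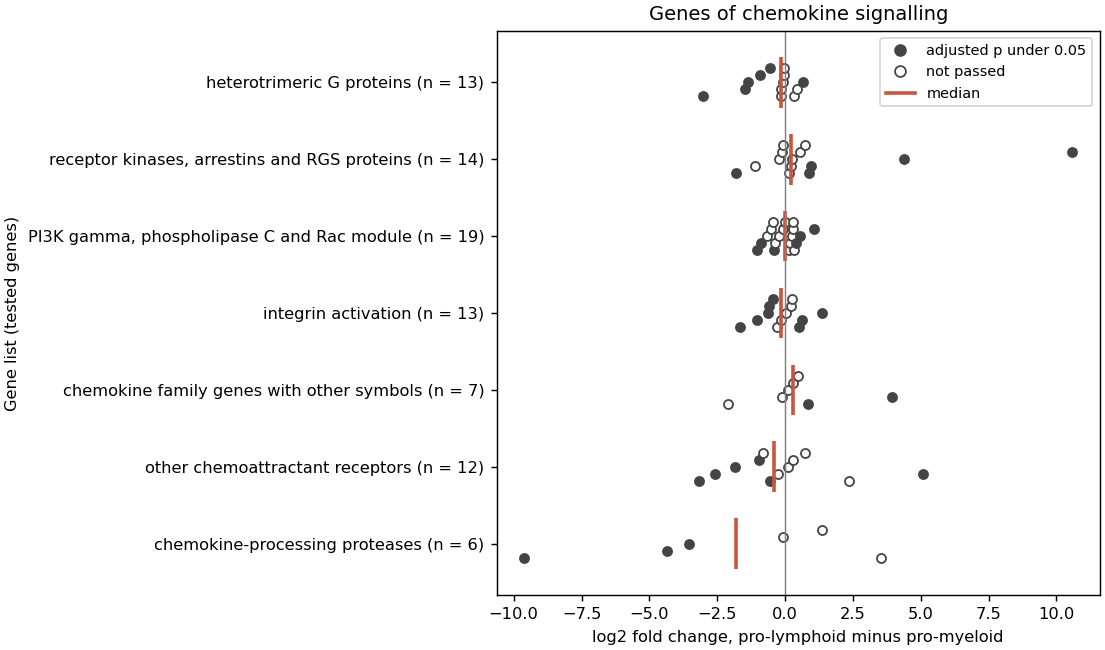
Log2 fold change (horizontal axis, pro-lymphoid minus pro-myeloid) of the 84 tested genes on 7 lists around chemokine signalling, with the list median as a red line; filled points passed an edgeR adjusted p of 0.05. Most medians lie near 0 and the protease list lies to the left at -1.81; the point at the far right is Rgs1, fitted against 0 pro-myeloid counts.

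Among 7 tested genes of the chemokine family under other symbols, 2 rose. Ccbp2, the scavenging receptor ACKR2, had 1.84, 0.863 and 0.582 CPM in pro-lymphoid libraries and 0.156, 0.0296 and 0.0217 CPM in pro-myeloid libraries (log2 fold change 3.93 ± 0.78, edgeR adjusted p = 0.00453). Mif, a cytokine that can bind Cxcr2 and Cxcr4, averaged 291 ± 52.7 CPM in pro-lymphoid and 160 ± 25.9 CPM in pro-myeloid culture (0.86 ± 0.18, adjusted p = 0.00881). Of 12 tested receptors for other chemoattractants, 1 rose and 5 fell. The anaphylatoxin receptor C3ar1 averaged 3.27 ± 1.12 CPM in pro-lymphoid and 0.0920 ± 0.0358 CPM in pro-myeloid culture (5.08 ± 0.51, edgeR adjusted p = 0.00022). The leukotriene receptor Ltb4r1 averaged 8.53 ± 0.511 CPM in pro-lymphoid and 76.6 ± 46.2 CPM in pro-myeloid culture (-3.16 ± 0.48, adjusted p = 0.00232). Of 6 tested proteases that trim chemokines, the neutrophil serine proteases Elane, Ctsg and Prtn3 fell, which are also on the neutrophil marker list, and none rose. Dpp4, which clips several chemokines, had 0.325, 11.6 and 1.12 CPM in pro-lymphoid libraries and 0.0260, 0.710 and 0.412 CPM in pro-myeloid libraries, and did not pass (3.52 ± 1.41, edgeR adjusted p = 0.0862).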

How the data were processed

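RNA of 6 libraries was extracted with Trizol, poly(A) selected and sequenced from NEBNext Ultra libraries, per the labels' protocols. The table that the authors deposited holds raw read counts for 23337 genes. Per the file headers, counting was done with featureCounts 1.5.1 over exons of mm10, without strand and with primary alignments. Reads of near-identical copies may thus be assigned to either copy, and reads of overlapping genes to either gene or to none. The submitters' processing notes name Trimmomatic, TopHat, Bowtie, featureCounts and DESeq2, with no settings in the sources used here. No column of another sample was present.

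Counts were tested with edgeR 4.0.16 (R 4.3.3): filterByExpr, TMM scaling (factors 0.961 to 1.05), a two-sided quasi-likelihood F test and Benjamini-Hochberg adjustment over 12477 genes at 0.05. CPM were computed with TMM-scaled library sizes, RPKM by dividing by exon length. The SE was derived from the F statistic. Folds against 0 counts used a floor of 3 counts over the group, which covers counting error of the 0 counts only. Error in the counts of the other group is not covered, so these folds are not lower limits. With no molecular identifiers, reads are not independent molecules. The procedure was tested on simulated data with 50 genes at each size of change. It called 38% of genes with a log2 change of 1, 82% at 2 and 98% at 4, and 0% of those without change. Changes near a log2 value of 1 were thus often missed there.

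The genes and lists were chosen with earlier results of these data known. Values by library are given for called members and for members with a mean of at least 5 CPM in either culture, beside others chosen after their values were seen. For each signalling list up to 4 genes with the smallest adjusted p are named, and Gnai2 in addition. Of 102 listed symbols 99 matched. RefSeq promoters (GRCm38.p6) were matched by symbol for 43 of the 61 members. Alternatives were RLE, upper-quartile or no scaling, no filter or 1 CPM in 3 libraries, DESeq2 1.42.0, limma-voom (limma 3.58.1), each library left out, and the legacy quasi-likelihood fit, added after the data were seen. Values of 1 member are not reported here, and it is counted in the totals.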

Additional observations from a re-analysis of the deposited data

How the results depend on the processing

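Ccr7 (log2 fold change 6.97 to 7.78), Ccl5 (4.15 to 5.51), Cx3cl1 (3.29 to 4.13), Cxcr2 (-3.45 to -2.70) and Ccl27a (-6.03 to -4.07) kept their direction and call under every alternative in which they were tested; Cxcl16 did not, and 9 of the 16 genes not called stayed so in all. With 1 library left out, members called higher ran from 3 to 10 and lower from 2 to 4, chemokines from 2 to 6 and from 1 to 2, receptors from 1 to 4 and from 1 to 2, signalling genes from 9 to 17 and from 13 to 21, and all tested genes from 1298 to 2478 and from 1788 to 2907. With a filter of 1 CPM, members called were 2 higher and 1 lower and chemokines 1 higher and 0 lower, since Ccl27a, Cx3cl1 and Cxcl16 were no longer tested. Receptors called higher were 2 with upper-quartile scaling, 3 without a filter and 2 in DESeq2, which called 2 chemokines lower. The legacy quasi-likelihood fit, chosen after seeing the data, called 3 members higher and 2 lower. No paired analysis was possible because no replicate number occurs in both groups. Members with few counts were left out by the filter, and the 16 tested genes not called are not shown to be equal between the cultures.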

Other observations

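The following ratios of counts within a library were chosen after their values were seen and are given without a test. Counts of Ccl3 per count of Ccl9 were 0.537, 0.397 and 0.285 in pro-lymphoid libraries, against 0.263, 0.0689 and 0.0324 in pro-myeloid libraries. The groups did not overlap, although pro-myeloid replicate 2 came close to pro-lymphoid replicate 6. Counts of Ccr1 per count of Ccr2 were 0.0858, 0.0434 and 0.0580 in pro-lymphoid libraries and 0.0231, 0.0287 and 0.0272 in pro-myeloid libraries. The pro-myeloid ratios of these genes, both in a cluster on chromosome 9, were nearly alike in replicate 2 and in the others, although the level of each gene was far lower in replicate 2. Cx3cr1, elsewhere on the same chromosome, had 1.54, 0.999 and 0.826 counts per count of Ccr2 in pro-lymphoid libraries and 2.71, 0.147 and 0.145 in pro-myeloid libraries. That ratio overlapped between the cultures, although Cx3cr1 alone did not. Counts of Ccl4 per count of Ccl3 also overlapped, at 0.147, 0.298 and 0.143 in pro-lymphoid libraries and 0.186, 0.184 and 0.197 in pro-myeloid libraries.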
